A study of Mus musculus with 2 samples.

Results

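The Fam19a genes (also named Tafa) encode small secreted proteins of the brain. The family was taken as the rows of both deposited tables whose symbol is Fam19a1, Fam19a2, Fam19a3, Fam19a4 or Fam19a5, and all 5 were found among the 20373 listed genes. The family was chosen by its name and by the measured level of Fam19a2, one of the genes with the largest excess in the neuron library, so the difference of each member between the libraries is given as a description, with no test. RNA was sequenced from 2 cell populations sorted out of embryonic mouse cortex (embryonic day 15.5), with 1 library each: neurons (red and green) and neural progenitor cells (NPCs, green). Both came from embryos that carried Nestin-GFP, a green reporter of progenitors, together with DCX-mRFP, a red reporter under doublecortin sequences that mark young neurons. The value columns are headed R in the neuron table and D in the NPC table, letters that the labels do not explain. Each table was assigned by its sample's label, and every direction given rests on that assignment. The labels do not say how many embryos were pooled. Reads assigned to listed genes numbered 23312054 for neurons and 26346226 for NPCs.

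Fam19a proteins carry a signal peptide and a core rich in conserved cysteines, and they are distant relatives of the CC chemokines. Neurons are a main known source in the brain. Reported partners include the neurexins, presynaptic adhesion receptors that several Fam19a proteins bind while both pass through the secretory pathway, and a few G protein-coupled receptors. In mice, Fam19a4 is known from sensory neurons of low-threshold touch, where it dampens injury-induced pain, and loss of Fam19a1 or Fam19a2 alters behaviour.

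The relatedness of the members is shown first in their coding sequence, because it bears on whether reads of one could be counted for another. The reading frames of the principal GENCODE M21 transcripts ran from 396 bases in Fam19a3 and Fam19a5 to 405 bases in Fam19a2 and Fam19a4. Fam19a3 and Fam19a4 were the most alike pair, with 73.5% identical bases, and Fam19a2 and Fam19a5 the least alike, with 58.1%. Fam19a5 was the outlying member, at 58.1% to 61.1% identity to the other 4, which among themselves shared 65.1% to 73.5%. An alignment of all 5 had 369 columns without a gap, of which 105 held the same base in every member. The stretch of 60 bases with the most shared columns, 31, is printed for each member 5′ to 3′ on the coding strand, with capitals for bases shared by all 5.
Fam19a1: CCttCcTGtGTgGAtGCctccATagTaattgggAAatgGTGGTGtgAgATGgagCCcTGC
Fam19a2: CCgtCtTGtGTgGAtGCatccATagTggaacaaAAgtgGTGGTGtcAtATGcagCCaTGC
Fam19a3: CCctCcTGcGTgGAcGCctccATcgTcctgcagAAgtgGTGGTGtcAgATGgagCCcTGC
Fam19a4: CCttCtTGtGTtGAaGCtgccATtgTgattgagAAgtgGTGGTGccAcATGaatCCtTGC
Fam19a5: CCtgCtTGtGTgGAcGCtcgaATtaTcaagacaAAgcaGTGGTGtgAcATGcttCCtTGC
Even in this stretch the shared bases came in short runs. Between the annotated transcripts of different members, the longest identical run on the same strand was 21 bases, between Fam19a1 and Fam19a3, and the longest on opposite strands was 13 bases. The length of the sequenced reads is not given in the sources used here.

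Of the 5 members, Fam19a1, Fam19a2 and Fam19a5 were measured in the sorted cells and were higher in neurons, while Fam19a3 and Fam19a4 were near or at 0 reads. Levels are in CPM, counts per 1000000, on a constant common to both libraries, and 1 CPM is 22.8 reads in the neuron library and 26.97 in the NPC library. Together the members had 1710 reads (75.1 CPM) in neurons and 938 reads (34.8 CPM) in NPCs. In bulk samples, fewer cells that make a transcript and less of it per cell cannot be told apart.

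Fam19a2, which is made by central neurons and has been reported to support their survival, had 644 reads or 28.3 CPM in the neuron library, against 120 reads or 4.45 CPM in the NPC library. Exact Poisson intervals (95%) were 26.1 to 30.5 CPM in neurons and 3.69 to 5.32 CPM in NPCs. The ratio of the levels was 6.35 (95% counting interval 5.22 to 7.79). The neuron library was the high one. Because the gene was chosen by its excess there, the gap between the counting intervals is not support for the difference. With 1 CPM added to both values the log2 ratio was 2.43, the gene of rank 2 in the direction of neurons among 12693 genes with at least 1 CPM in a library. The NPC level was 15.7% of that in neurons.

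Fam19a1, a relative known from cortical and hippocampal neurons, had few reads, most of them in the neuron library. It had 59 reads or 2.59 CPM in neurons (1.97 to 3.34), against 4 reads or 0.148 CPM in NPCs (0.0404 to 0.380). The ratio was 17.5, and with so few NPC reads its counting interval ran from 6.47 to 66.2. That interval overlaps the interval of Fam19a2, so these counts do not order the 2 ratios. On the log2 scale with 1 CPM added, which understates the difference of low genes, Fam19a1 stood at 1.64 (rank 51) and thus below Fam19a2.

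Fam19a5, the most divergent member and one known from neurons as well as other cells of the brain, was present in both libraries, with a smaller difference. It had 1007 reads or 44.2 CPM in neurons (41.5 to 47.02), against 812 reads or 30.1 CPM in NPCs (28.1 to 32.2). The ratio was 1.47 (1.34 to 1.61). Neurons were again the higher library, but the NPC level was 68.1% of theirs. Neuron markers could differ as little: Map2 was 1.46-fold and Dcx 1.31-fold higher in neurons. Of 8 such markers 7 were higher in neurons, by 1.31-fold to 6.63-fold. Which cells of the NPC library held the Fam19a5 transcripts was not tested. The interval of this ratio lies below those of Fam19a1 and Fam19a2. Because Fam19a2 was chosen by its excess in neurons, this gap is a description and not support for an order. The log2 ratio with 1 CPM added was 0.54, at rank 1503.

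Fam19a3 had 0 reads in both libraries, which allows a level of up to 0.132 CPM in neurons and 0.111 CPM in NPCs (3 reads). Fam19a4 had 0 reads in neurons and 2 reads or 0.0740 CPM in NPCs. For these members no difference was detectable at this depth, and no ratio is given. Silence of this kind is common in the tables: 20.9% of all listed genes had 0 reads in both libraries and 28.6% had at most 3 in each.

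**Figure D1:**
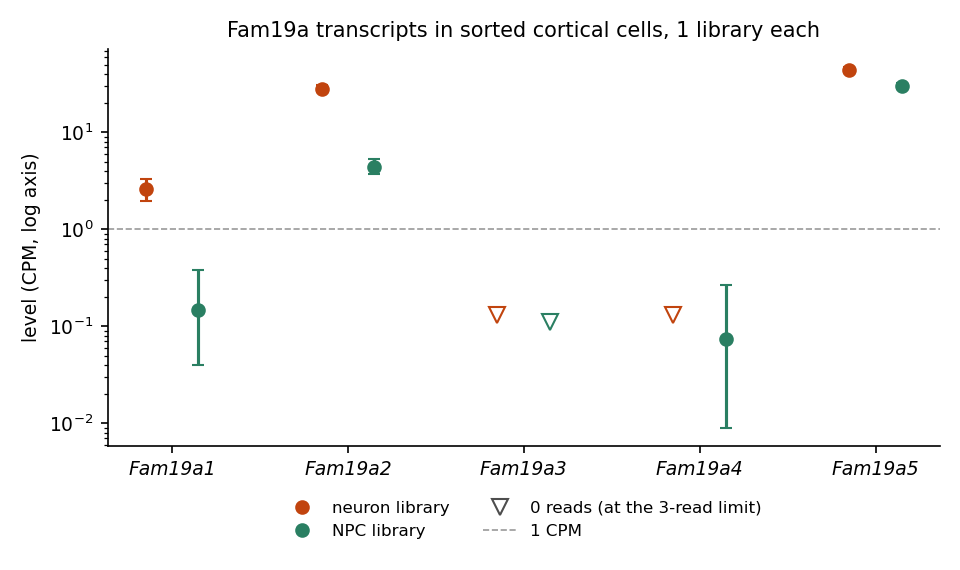
Level of each Fam19a member (CPM, log axis) in the neuron and the NPC library, 1 library each. Points are levels with exact 95% Poisson intervals (counting error only), open triangles mark 0 reads and sit at the 3-read limit, and the dashed line is 1 CPM. Fam19a1 crosses the line in neurons only, at 2.59 CPM against 0.148 CPM in NPCs, and of the 3 members above the line in a library Fam19a5 has the levels that lie closest together, at 44.2 CPM in neurons and 30.1 in NPCs.

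Of the 5 members, 3 passed the filter of 1 CPM in at least 1 library. Counted on the log2 scale with 1 CPM added, 2 were at least 2-fold higher in neurons, Fam19a1 and Fam19a2, against 3.85% of all genes that passed, and 0 were at least 2-fold higher in NPCs, against 6.73%. The family was chosen with this contrast known, so nothing is read from these counts. The median log2 ratio of all genes that passed was −0.0049. With 1 library per population the differences have no replicate check, no p-value can be given, and counting intervals do not cover differences between embryos or sorts.

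Set against exon length, the make-up of the family differed between the libraries. The differences in share follow from the levels above, among them the excess by which Fam19a2 was chosen, and are no separate result. Dividing CPM by the exon length annotated in GENCODE M21 gave Fam19a5 15.2 CPM per kb in neurons and 10.4 in NPCs, the highest member level per length in both. Fam19a2 stood at 6.03 CPM per kb in neurons and 0.949 in NPCs, and Fam19a1 at 0.615 and 0.0352. On this scale Fam19a5 made up 69.6% of the family's summed level in neurons and 91.2% in NPCs. The share of Fam19a2 was 27.6% in neurons and 8.36% in NPCs. That of Fam19a1 was 2.81% in neurons and 0.310% in NPCs. The order Fam19a5, Fam19a2, Fam19a1 was the same in both libraries, and with the longest coding transcript in place of all exons the shares of Fam19a2 were 27.03% and 8.18%. The annotation the authors counted on may differ from this one.

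**Figure D2:**
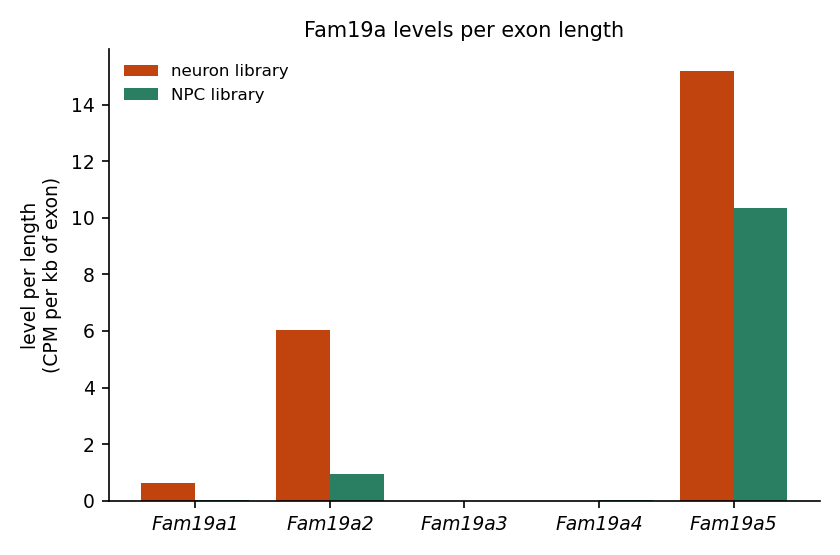
Level per exon length (CPM per kb, linear axis from 0) of each Fam19a member in the neuron library and the NPC library, 1 bar per library and no replicates. Fam19a5 is the tallest in both, at 15.2 CPM per kb in neurons and 10.4 in NPCs, while Fam19a2 stands at 6.03 in neurons and 0.949 in NPCs and Fam19a1 at 0.615 and 0.0352.

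The genes whose levels were most like those of Fam19a2 were found by the distance between pairs of log2(CPM + 1) values, over the 2 libraries. The nearest 5, at distances of 0.37 to 0.54, were Sepp1, Spnb4, Sphkap, Fcrls and Cx3cr1. Sepp1, which encodes the selenium transport protein selenoprotein P, was at 30.2 CPM in neurons and 5.97 in NPCs. Spnb4, the gene of a spectrin of the axon initial segment, was at 22.6 CPM in neurons and 5.71 in NPCs. Sphkap, an anchoring protein of protein kinase A, was at 21.4 CPM in neurons and 5.34 in NPCs. Fcrls and Cx3cr1 are known as microglial genes, and they were at 20.7 and 26.4 CPM in neurons, against 4.04 and 6.86 CPM in NPCs. A likeness over 2 libraries is a pair of levels and no more.

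**Figure D3:**
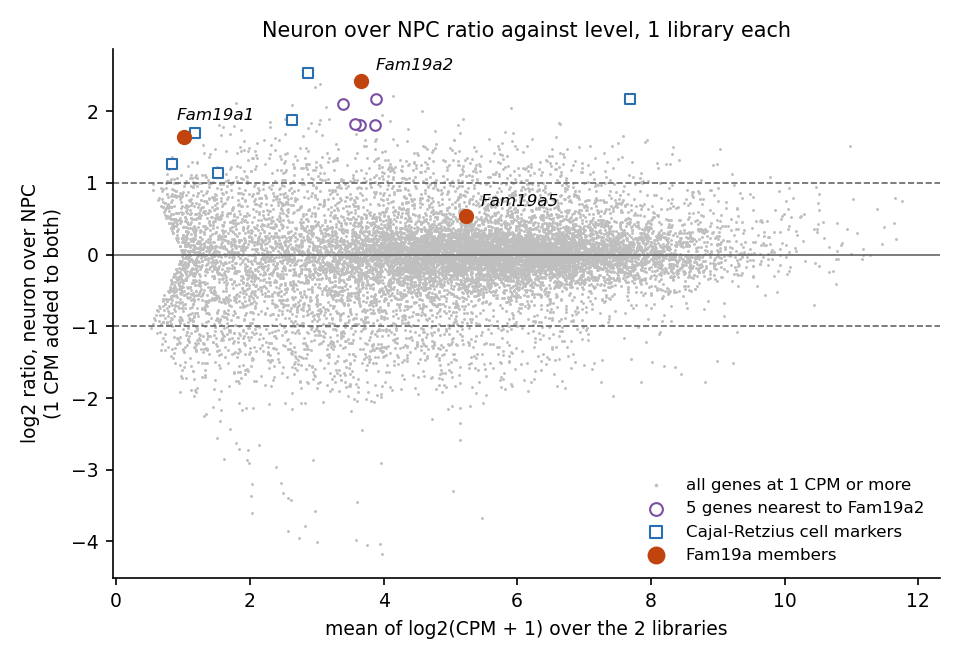
Log2 ratio of neuron over NPC (1 CPM added to both) against the mean of log2(CPM + 1), for the 12693 genes that passed the filter, with the Fam19a members that passed, the 5 genes nearest to Fam19a2 and the Cajal-Retzius cell markers drawn over them. Dashed lines mark 2-fold. Fam19a2 at 2.43 and Fam19a1 at 1.64 lie at the upper edge of the cloud, and Fam19a5 at 0.54 lies inside it.

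The populations, and with them the assignment of the tables by label, were checked on marker lists, since other cells in a sort could carry Fam19a transcripts. Of 8 neuron markers, 7 were higher in the neuron library, where the list summed to 7632 CPM against 5054 in NPCs. Dcx, the most abundant, was at 3294 and 2522 CPM, and in NPCs it had rank 5 by level among all listed genes. Rbfox3 was the exception, at 99.6 CPM in neurons and 107 in NPCs. Neuron transcripts were thus abundant in both libraries, and these lists separate the populations only in part. Nes, whose sequences drove the green reporter, was at 189.5 CPM in neurons and 408.5 in NPCs. All 8 radial glia markers (618 CPM in neurons and 1711 in NPCs), all 5 intermediate progenitor markers (829.9 and 2026), all 6 dividing cell markers (439 and 1387) and all 6 interneuron markers (216 and 301) were lower in neurons, and none of them was at 0 there. The Cajal-Retzius cell markers moved with Fam19a1 and Fam19a2: all 6 were higher in neurons, by 3.50-fold to 11.8-fold, with a summed level of 469.7 CPM in neurons and 101 in NPCs, of which Reln made up 434 and 95.8. So did the microglia and macrophage markers, of which 7 of 7 were higher in neurons, by 2.80-fold to 5.22-fold, with sums of 117 CPM in neurons and 27.95 in NPCs, and Csf1r at 46.8 and 10.9. No marker of either list was at 0 in a library, and the part of these cells in the Fam19a values was not tested. Lists lower in neurons were the endothelial (6 of 6, sums of 1.89 CPM in neurons and 15.5 in NPCs), the oligodendrocyte precursor (5 of 5, 2.81 and 76.8) and the pericyte and smooth muscle markers (4 of 6, 10.1 and 132.5). Cspg4, at 1.01 CPM in neurons and 31.2 in NPCs, is counted in both the oligodendrocyte precursor and the pericyte and smooth muscle list. Red blood cell markers summed to 2.59 CPM in neurons and 1.89 in NPCs.

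The reported receptors and binding partners were largely present in both populations. Of the 4 described here that passed the filter, 0 were at least 2-fold apart, against 3.85% of all genes toward neurons and 6.73% toward NPCs. With 4 genes this count is not a result about the list. Nrxn2, a neurexin gene, was higher in neurons, at 199 CPM in neurons and 102.7 in NPCs (1.94-fold, 1.85 to 2.04). Nrxn3, another neurexin gene, was lower in neurons, at 30.9 CPM against 41.5 in NPCs (1.34-fold lower, 1.22 to 1.48). Lrrc4b, a synaptic adhesion molecule reported to bind Fam19a5, was at 245 CPM in neurons and 172.5 in NPCs (1.42-fold, 1.36 to 1.47). The G protein-coupled receptors had fewer reads. S1pr2, a sphingosine 1-phosphate receptor reported for Fam19a5, was at 3.60 CPM in neurons and 4.08 in NPCs, a difference within counting error (ratio 0.883, 0.655 to 1.19). Fpr1, the formyl peptide receptor reported for Fam19a4, had 1 read in neurons and 5 in NPCs, and Gpr1, reported for Fam19a1, had 4 and 3. The median log2 ratio of the 4 that passed was 0.18, and it was -0.030 with Fpr1 and Gpr1 included and 0.50 without S1pr2.

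Other ligands of neurexins included members with differences in the direction of Fam19a2 and members with smaller differences the other way. Of 18 such genes 16 passed the filter, 10 of them higher in neurons and 6 in NPCs, where 6263 of all 12693 genes were higher in neurons. At least 2-fold higher in neurons were 4, against 3.85% of all genes, and 0 were so in NPCs, against 6.73%. The median log2 ratio was 0.53. Nxph3, a neurexophilin, was at 25.6 CPM in neurons and 9.64 in NPCs (2.65-fold, 2.29 to 3.08). Cbln1, a cerebellin that links neurexins to glutamate receptors, was at 22.3 CPM in neurons and 9.05 in NPCs (2.46-fold, 2.11 to 2.88). The leucine-rich repeat gene Lrrtm1 was 2.41-fold higher in neurons (2.18 to 2.65), and its relative Lrrtm3 2.35-fold (1.99 to 2.78). The other neurexophilins were higher in NPCs, Nxph1 by 1.41-fold, Nxph2 by 1.27-fold and Nxph4 by 1.45-fold. The cerebellin Cbln2 was so by 1.18-fold. In all, 10 genes had a counting interval on the side of neurons and 5 on that of NPCs.

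Neuropeptide precursors, other secreted peptides of neurons, mostly lay below the filter. Of 18 listed, 6 passed the filter, where 12693 of all 20373 genes passed. Of these 6, 0 were at least 2-fold apart, against 3.85% of all genes toward neurons and 6.73% toward NPCs. With 6 genes this count is not a result about the list. The median log2 ratio was 0.26. Summed over the list, they stood at 22.0 CPM in neurons and 20.02 in NPCs. Cck was at 3.95 CPM in neurons and 1.93 in NPCs (2.05-fold without the added value, 1.44 to 2.94), and Sst, of interneurons, at 4.26 CPM in neurons and 6.08 in NPCs. Nmb and Adcyap1 were at 3.38 and 2.99 CPM in neurons, against 2.48 and 2.22 in NPCs.

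Secretory granule genes were readily measured, with 12 of 13 past the filter, sums of 1079 CPM in neurons and 1039 in NPCs, and 0.38 as the median log2 ratio. Counted with 1 CPM added, 1 of the 12 was at least 2-fold higher in neurons, against 3.85% of all genes, and 1 was at least 2-fold lower, against 6.73%. A single gene each way is near those shares, so the counts are not a result about the list. The higher one was Pcsk1n, an inhibitor of prohormone convertase, at 25.5 CPM in neurons and 10.9 in NPCs (2.34-fold, 2.03 to 2.70). Without the added value the granin Scg2 exceeded its NPC level 2.47-fold (1.63 to 3.81), and the granin Chgb did so 1.80-fold (1.64 to 1.99). Cadps2, a priming factor of dense-core vesicles, was the lower one, at 1.84 CPM in neurons and 8.30 in NPCs (4.50-fold lower, 3.23 to 6.42).

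**Figure D4:**
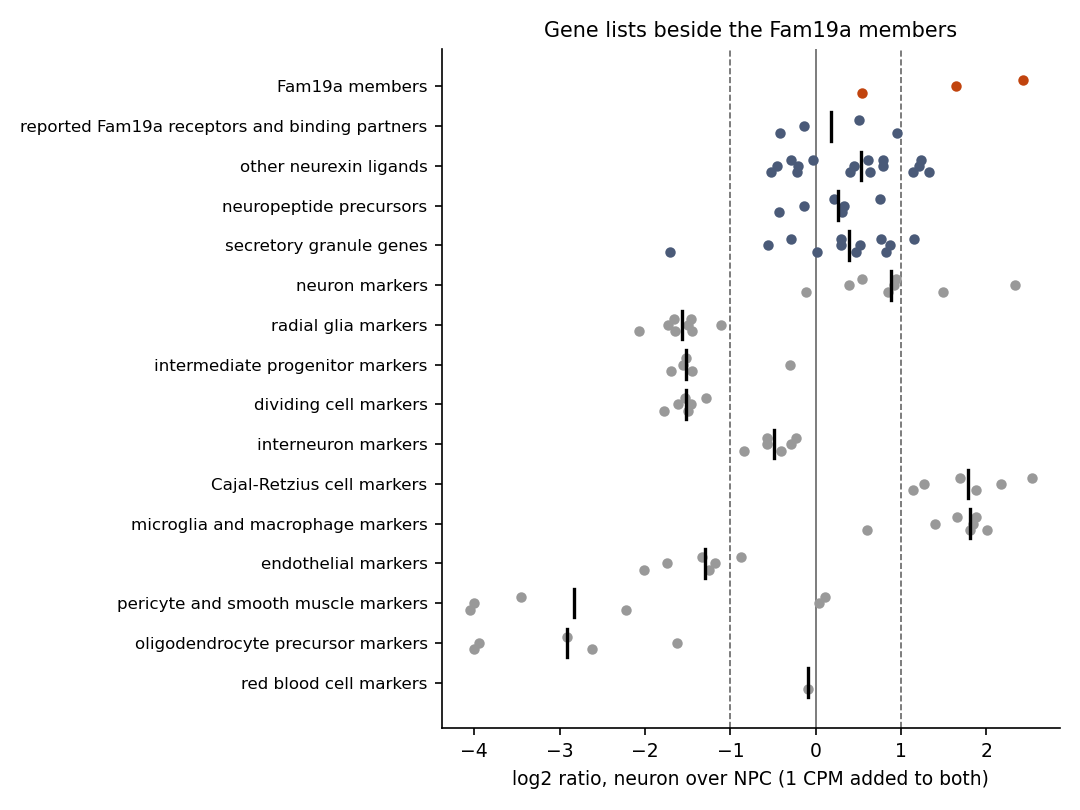
Log2 ratio of neuron over NPC (1 CPM added to both) for the genes of each list that passed the filter. Points are genes, spread vertically only to separate them, black bars are list medians, and dashed lines mark 2-fold. The median is 0.18 for the reported partners and 0.53 for other neurexin ligands, and no bar is drawn for the Fam19a members.

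The members share a small reading frame spread over a large gene, apart from Fam19a3. In GENCODE M21 (GRCm38) the genes span 544 kb (Fam19a1), 477 kb (Fam19a2), 229 kb (Fam19a4) and 215 kb (Fam19a5), at percentiles 95.9 to 99.1 of 21897 protein-coding genes, while Fam19a3 spans 14.4 kb, at percentile 44.9. Of the 11466 measured genes with a span, the 1147 longest, from 146 kb upward, were looked at after the member values were seen. Among them 10.3% exceeded 2-fold toward neurons and 10.5% toward NPCs, against 3.85% and 6.73% of all genes that passed the filter. Of the shorter genes 3.30% did so toward neurons, and their share toward NPCs was not computed. Fam19a1 and Fam19a4 are next to each other on chromosome 6, with no protein-coding gene between them in RefSeq, and Fam19a1 alone of this pair passed the filter. On its other side Suclg2, a subunit of succinyl-CoA ligase, was lower in neurons, at 6.19 CPM against 17.9 in NPCs. Beside Fam19a2 on chromosome 10, Usp15, a deubiquitinase, was at 78.7 CPM in neurons and 61.1 in NPCs. On the other side Slc16a7, a monocarboxylate transporter, was at 6.98 CPM in neurons and 2.52 in NPCs (2.77-fold, 2.07 to 3.73). Tbc1d22a, a neighbour of Fam19a5 on chromosome 15, was at 19.5 CPM in neurons and 19.6 in NPCs. Its other neighbour, Zdhhc25, had 0 reads in both libraries. These neighbours were taken by position, and those of Fam19a3 and the other neighbour of Fam19a4 are not given.

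The sequences before the start sites set Fam19a5, the measured member with the smallest ratio, apart from Fam19a1 and Fam19a2. In the 250 bases before a RefSeq start site (GRCm38.p6), CG pairs numbered 4 in Fam19a1 and 6 in Fam19a2, against a median of 6 over 32851 such windows. Fam19a5 has 2 start sites with 48 and 38 pairs, at percentiles 99.9 and 98.4. Fam19a3 and Fam19a4, the members near 0, had 6 and 13 pairs. The bases G and C made up 40.8% of the window in Fam19a1, 38.8% in Fam19a2, and 83.6% and 81.6% in Fam19a5. The 150 bases before the outermost start of these 3 genes in GENCODE M21 or RefSeq are printed 5′ to 3′ on the strand of the gene, with CG pairs in capitals, to show this contrast. The stretches are chr6:96113004-96113153 (plus strand) for Fam19a1, chr10:123263846-123263995 (plus strand) for Fam19a2 and chr15:87544069-87544218 (plus strand) for Fam19a5. In Fam19a2 and Fam19a5 the outermost start lies 80 bases before the start site of the counted window, so the printed stretch ends 80 bases short of that site.
Fam19a1: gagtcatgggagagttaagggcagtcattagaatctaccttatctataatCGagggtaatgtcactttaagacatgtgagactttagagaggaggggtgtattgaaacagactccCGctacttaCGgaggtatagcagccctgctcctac
Fam19a2: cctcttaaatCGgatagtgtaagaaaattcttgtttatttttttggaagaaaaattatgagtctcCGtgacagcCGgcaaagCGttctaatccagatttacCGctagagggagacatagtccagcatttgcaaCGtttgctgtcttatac
Fam19a5: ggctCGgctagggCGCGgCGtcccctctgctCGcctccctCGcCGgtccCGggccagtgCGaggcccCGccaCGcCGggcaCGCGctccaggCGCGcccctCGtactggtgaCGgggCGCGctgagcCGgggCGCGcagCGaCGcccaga
They hold 3, 6 and 25 CG pairs. CAGATG, an E-box that proneural factors can bind, was found once in the 250-base windows of Fam19a2 and of Fam19a3 (either strand, so also as CATCTG) and not in those of the other members, and 14.4% of all windows hold it. The match of Fam19a2 is not within its printed stretch and may lie after the outermost start. CAGCTG, an E-box that reads the same on both strands, was found once, in the window of Fam19a3, and is held by 13.0% of all windows. TATAAA was found on neither strand in any of the members' windows and is held by 12.4% of all. The tables give 1 value per gene, so the start sites of Fam19a5 cannot be told apart, and a match of letters is not a bound site.

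**Figure D5:**
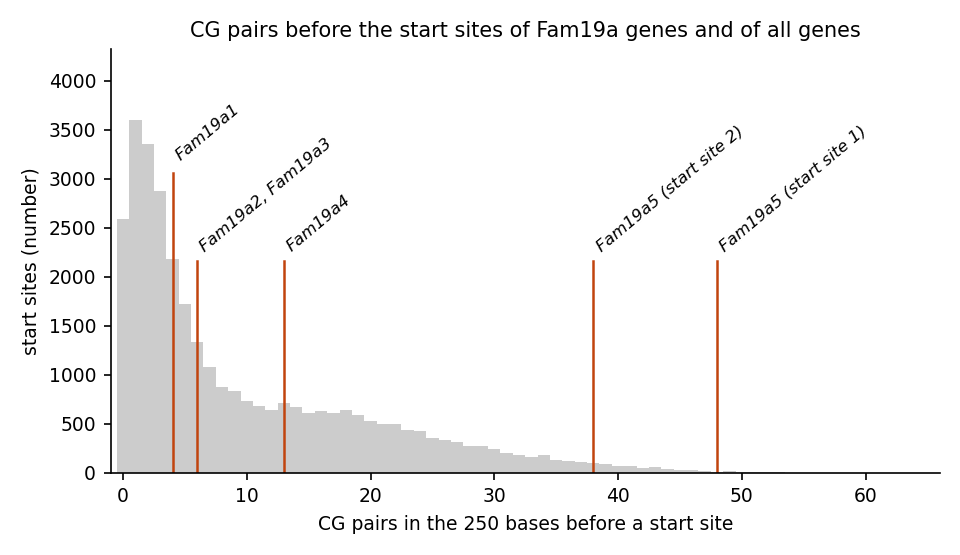
Number of CG pairs in the 250 bases before a start site (horizontal) and number of start sites with that many (vertical), for 32851 RefSeq start sites in grey, with lines at the Fam19a genes (line height has no meaning). Fam19a1 and Fam19a2 lie at 4 and 6 pairs, in the body of the distribution, and the start sites of Fam19a5 lie in its tail, at 48 and 38.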

How the data were processed

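RNA-seq was available for 1 neuron and 1 NPC library. Tools listed in the submitters' processing notes are TopHat 1.2.0, SAMtools 0.1.18, CASAVA 1.9 and edgeR (no version), on genome build mm9, without their roles. Not given in the sources used here are read length, strand use, gene annotation and how multiply aligned reads were treated, so reads of an overlapping or antisense gene could not be separated from a member's own. The deposited values are a signal that is never below 0, by form read counts that the authors rescaled between the libraries. They are close to whole multiples of a step, 1.128 in the neuron and 0.953 in the NPC library. Dividing by it gave whole reads within 0.05 reads for 99.9% of neuron and 100% of NPC values.

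Deposited values were divided by 25698104, the mean of both sums, and multiplied by 1000000 to give CPM, which keeps the authors' scaling. Genes with at least 1 CPM in a library were compared by log2((neuron + 1)/(NPC + 1)) and counted from 2-fold upward. Folds of single genes are ratios of CPM with exact 95% Clopper-Pearson intervals from the recovered reads. Because reads without molecular identifiers can repeat 1 molecule, the intervals and the 3-read limit cover counting error only. With 1 library per group no test was made. The analysis had been laid out for either form of values. The calculations were tested on counts simulated with Poisson error only, which checks the arithmetic and not differences between embryos or sorts. Python 3.11.15, scipy 1.17.1, R 4.3.3 and edgeR 4.0.16 (TMM factors, as an alternative only) were used. Coordinates, gene spans and sequences are from GENCODE M21 and RefSeq on GRCm38, not from mm9, and all 5 members matched a RefSeq gene, there named Tafa.

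The members and the 16 gene lists were chosen with earlier results of these data known. Named are the members, the reported partners, up to 4 genes per other list with the largest absolute log2 ratio, the reporter genes, the most abundant gene of the neuron, Cajal-Retzius and microglia marker lists (the other marker lists are given by their sums), and the 5 genes nearest to Fam19a2 without predicted symbols. Map2, Rbfox3, Cspg4, Nxph1, Nxph2, Nxph4 and Cbln2 are named besides, because they bear on the reading of their lists. Of the listed genes, 2 were found under an older symbol and 0 were missing. A gene that belongs to the reported partners is not reported here, and the list's counts and median are without it.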

Additional observations from a re-analysis of the deposited data

How the results depend on the processing

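The ratios of Fam19a1, Fam19a2 and Fam19a5 kept their direction under every alternative run: scaling by total reads, TMM, upper quartiles or the median of ratios, and 0.5 CPM, 5 CPM or 1 read added before the logarithm. Under the 4 scalings they moved by less than their counting intervals. The log2 ratio of Fam19a1 was 2.25 with 0.5 CPM added, 0.56 with 5 CPM and 3.83 with 1 read. That of Fam19a2 was 1.82 with 5 CPM and 2.66 with 1 read. With 1 read added, Fam19a1 thus stood above Fam19a2, the reverse of the order with 1 CPM added. With 5 CPM added, or a filter of 10 CPM, 1 member was at least 2-fold higher in neurons in place of 2. In both cases this was Fam19a2, since Fam19a1, at 2.59 CPM, lies below both values. The median of the reported partners was -0.030 without a filter, which lets in Fpr1 and Gpr1 and turns its sign, and 0.50 with the filter of 10 CPM, which leaves out S1pr2. Other neurexin ligands at least 2-fold higher in neurons numbered 2 with 5 CPM added. With 1 read added, 1 neuropeptide precursor was 2-fold or more higher in neurons. Secretory granule genes at least 2-fold higher in neurons numbered 2 with 0.5 CPM added, 0 with 5 CPM and 3 with 1 read. Those higher in NPCs numbered 0 with 5 CPM added and 0 with the filter of 10 CPM. With 5 CPM added, 238 genes in all passed 2-fold toward neurons and 399 toward NPCs. With 1 read added 754 did so toward neurons, and with the filter of 10 CPM 548 toward NPCs. No paired analysis was possible because each population has 1 library. For the same reason no replicate could be left out. The depth sets the limit for Fam19a3 and Fam19a4, and the NPC level of Fam19a1 rests on 4 reads.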
